A study of Arabidopsis thaliana with 6 samples.

Results

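miR822 is a young plant microRNA of Arabidopsis thaliana, cut from a long hairpin transcript of the gene MIR822 (AT5G03552). The values described here are the depth of sequenced RNA at each of the 337 positions listed for this hairpin, out of 15862 positions listed for 10 loci. The hairpin was taken whole, with no choice by value. The RNA had been immunoprecipitated from plants of ecotype Columbia, from flowers and from seedlings. The DCL4-8:FHA and DCL4-6:FHA plants carried a tagged form of a missense allele of DCL4, a Dicer-like enzyme, driven by the DCL4 promoter in a background homozygous for the mutation dcl4-2. The WT plants were Col-0, which carry no tagged DCL4 and give the background of the immunoprecipitation. Each line was sampled with 1 library per tissue, so the 6 libraries hold no replicate and no test between groups was possible. Intervals below are 95% intervals for counting error alone, and they cover no difference between plants, between immunoprecipitations or in the copying of molecules during amplification.

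Dicer-like enzymes cut double-stranded RNA into short duplexes. Most plant microRNAs come from short, imperfect hairpins that DCL1 cuts, whereas young microRNAs such as miR822 come from long, almost fully paired hairpins that have diverged little from an inverted duplication, and miR822 is known to be made by DCL4. A microRNA duplex has a strand from each arm of the hairpin, named 5p and 3p, and the ends of the arms away from the base are joined by a terminal loop, the tip. miR822-5p is known for directing the cleavage of transcripts of genes for proteins with DC1 domains.

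The annotated hairpin covers chr5:897020-897356 on the minus strand of TAIR10.1 and is 337 nt long. It lies in an intron, from 896997 to 897622, of AT5G03553, a gene annotated on the other strand from 896846 to 897746. The predicted fold of lowest free energy, -172.2 kcal/mol, has 140 base pairs, of which 9 are G-U pairs, and a terminal loop of 3 nt at 897190 to 897192. On the minus strand the 5p side has the higher coordinates, from 897193 to 897356, and the 3p side runs from 897020 to 897189. The deposited positions run from 897019 to 897355 and were read as counted from 1, so that the first base of the hairpin, 897356, has no value. Counted from 0, they would cover the annotated hairpin exactly. Distances and partial overlaps of reads with the mature microRNAs given below would then move by 1 nt. Every one of the 288 stretches of 50 nt in the hairpin occurs at a single place in the genome, so a read of 50 nt from it has no second perfect match.

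The mature microRNAs are shown first because the depth differed so much between their places in the hairpin. Capitals mark bases 2 to 8, the seed, which pairs first with a target. miR822-5p lies at chr5:897287-897307 and miR822-3p at chr5:897067-897087, both on the minus strand, as RefSeq annotates them, and the bases are those of the RefSeq TAIR10.1 genome.
miR822-5p: uGCGGGAAgcauuugcacaug
miR822-3p: uGUGCAAAugcuuucuacagg
The stretches that held most of the reads are shown next, as DNA in the direction of transcription, with the mature microRNA in capitals. The 5p stretch is chr5:897228-897307 and the 3p stretch is chr5:897028-897100. In the 5p stretch the sequence after the capitals carried the reads, and in the 3p stretch the reads ran over the capitals.
5p arm stretch: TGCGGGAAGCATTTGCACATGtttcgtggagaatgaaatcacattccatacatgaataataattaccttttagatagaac
3p arm stretch: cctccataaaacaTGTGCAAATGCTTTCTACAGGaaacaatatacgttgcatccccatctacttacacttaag
The apex, chr5:897175-897207, is shown because almost no read crossed it, with the terminal loop in capitals.
Apex: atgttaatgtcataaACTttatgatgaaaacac

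The hairpin was recovered with both tagged forms in both tissues and was at or near 0 in WT. Its level is the mean depth over the 337 positions in RPM, that is, scaled to the total number of reads of the library. In flowers the level was 2.38 RPM with DCL4-8:FHA (2.05 to 2.76), 5.02 RPM with DCL4-6:FHA (4.60 to 5.46) and 0 in WT. In seedlings it was 6.36 RPM with DCL4-8:FHA (5.96 to 6.78), 4.58 RPM with DCL4-6:FHA (4.21 to 4.98) and 0.227 RPM in WT (0.0468 to 0.663). DCL4-8:FHA thus had both the lowest and the highest level among the tagged libraries.

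These levels rest on 181 reads with DCL4-8:FHA and 534 reads with DCL4-6:FHA in flowers, and on 933 reads with DCL4-8:FHA and 549 reads with DCL4-6:FHA in seedlings, taking the summed depth divided by 50 nt as the number of reads. The 6 libraries had 1961876 to 21771069 reads in all, and WT seedlings was the shallowest. WT flowers had 0 reads at the hairpin. WT seedlings had 3 reads, all of them at 897235 to 897284, which is one of the places where reads of the tagged libraries were stacked. Against a floor of 3 reads set for WT flowers, the level was 85.0-fold higher with DCL4-8:FHA and 179-fold higher with DCL4-6:FHA. These values leave out the counting error of the tagged libraries and are not lower bounds of an interval. In seedlings it was 28.0-fold higher than in WT with DCL4-8:FHA (9.56 to 136) and 20.2-fold higher with DCL4-6:FHA (6.87 to 98.2). In these libraries fewer cells that make the hairpin and less hairpin RNA per cell cannot be told apart, nor can either be told apart from the yield of an immunoprecipitation. The DCL4 transcript and markers of the tissues are not analysed here, so the labels of line and tissue were not checked against them.

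**Figure D1:**
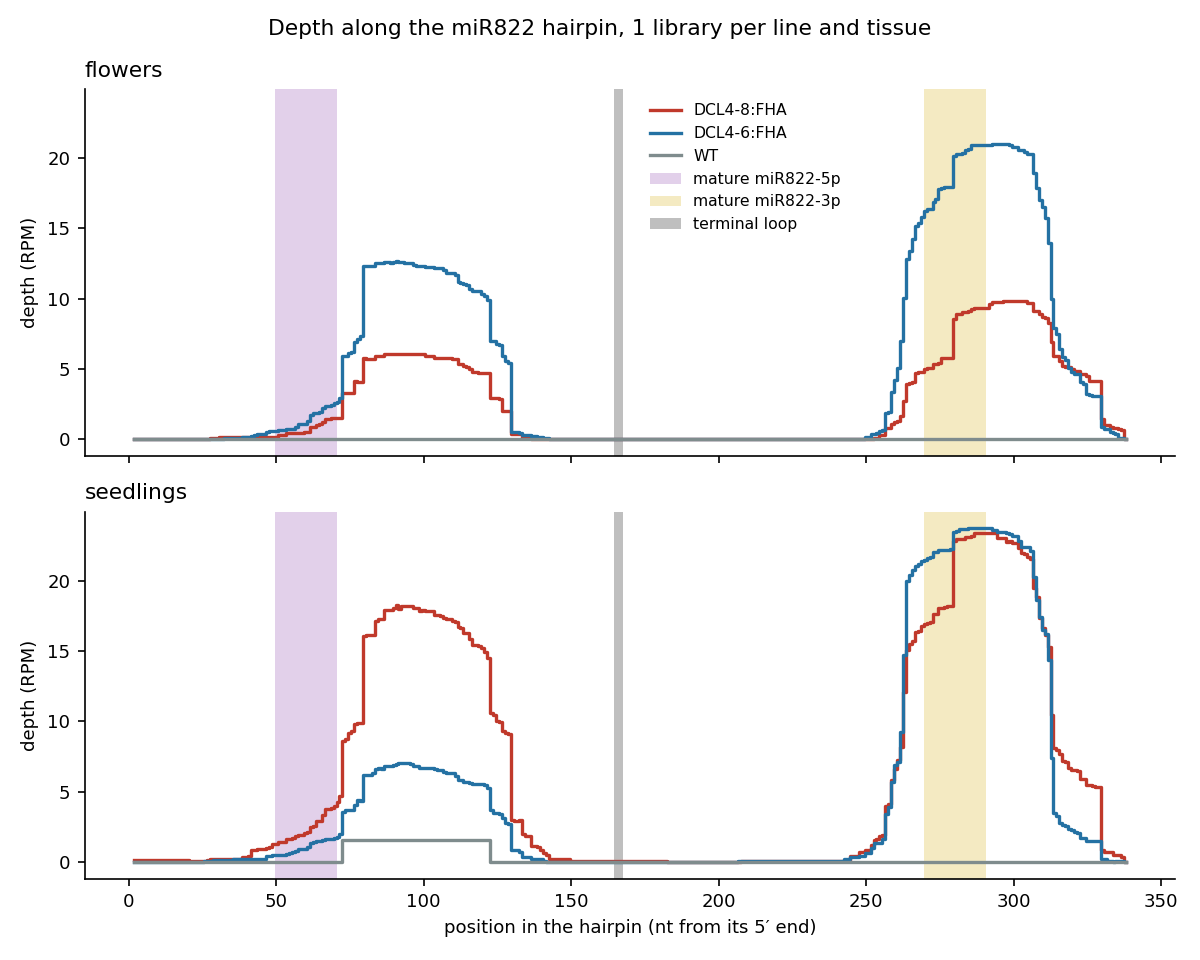
Depth in RPM at each position of the hairpin, counted in nt from its 5′ end, in flowers (top) and seedlings (bottom), with 1 trace per library and shading for the mature microRNAs and the terminal loop. In every tagged library the depth forms a block on each side of the hairpin with an empty centre; the 5p block lies beside mature miR822-5p, and the 3p block lies over mature miR822-3p.

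Depth was gathered in a single block on each side of the hairpin. On the 3p side the highest depth was 9.86 RPM with DCL4-8:FHA against 21.03 RPM with DCL4-6:FHA in flowers, and 23.4 RPM with DCL4-8:FHA against 23.7 RPM with DCL4-6:FHA in seedlings, at positions from 897053 to 897072. On the 5p side it was 6.04 RPM with DCL4-8:FHA against 12.7 RPM with DCL4-6:FHA in flowers, and 18.3 RPM with DCL4-8:FHA against 7.03 RPM with DCL4-6:FHA in seedlings, at positions from 897257 to 897270. The blocks had the same places in the 4 tagged libraries, while their heights did not keep the same order on the 2 sides.

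The stretch over which depth was at least 50% of its highest value was 49 to 54 nt wide on each side in each library, close to the read length. The libraries covered 194 positions with DCL4-8:FHA and 198 positions with DCL4-6:FHA in flowers, and 311 positions with DCL4-8:FHA and 246 positions with DCL4-6:FHA in seedlings. The median depth over the 337 positions was 0.178 RPM with DCL4-8:FHA against 0.380 RPM with DCL4-6:FHA in flowers, and 1.06 RPM with DCL4-8:FHA against 0.394 RPM with DCL4-6:FHA in seedlings. Over the 6 pairs of tagged libraries, Pearson's r between profiles lay between 0.862 and 0.985 over the 337 positions. Neighbouring positions share reads, so these values describe the shapes and carry no p-value. The lowest were 0.862 between DCL4-8:FHA flowers and DCL4-6:FHA seedlings and 0.879 between the tagged libraries of seedlings.

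The 3p side was deeper than the 5p side in each tagged library, least so in DCL4-8:FHA seedlings and most in DCL4-6:FHA seedlings. Mean depth with DCL4-8:FHA in flowers was 2.90 RPM on the 3p side and 1.91 RPM on the 5p side, a ratio of 1.52 (1.12 to 2.08). With DCL4-6:FHA in flowers it was 6.15 RPM on the 3p side and 3.96 RPM on the 5p side, a ratio of 1.55 (1.30 to 1.86). With DCL4-8:FHA in seedlings it was 6.92 RPM on the 3p side and 5.93 RPM on the 5p side, a ratio of 1.17 (1.02 to 1.33). With DCL4-6:FHA in seedlings it was 6.97 RPM on the 3p side and 2.20 RPM on the 5p side, a ratio of 3.16 (2.59 to 3.88). The 3p share of the coverage was 61.3% with DCL4-8:FHA and 61.8% with DCL4-6:FHA in flowers, and 54.9% with DCL4-8:FHA and 76.7% with DCL4-6:FHA in seedlings.

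The balance of the sides differed between the lines in seedlings and not detectably in flowers. The ratio of 3p to 5p depth with DCL4-8:FHA was 0.370 times that with DCL4-6:FHA in seedlings (0.290 to 0.471) and 0.980 times in flowers (0.684 to 1.41). Between tissues, the ratio with DCL4-6:FHA in flowers was 0.492 times that in seedlings (0.374 to 0.646), and with DCL4-8:FHA it was 1.30 times (0.931 to 1.83), an interval that holds 1. The 3p share was thus highest in DCL4-6:FHA seedlings, which is 1 library. A start position was taken as a position where depth rose. A start at a base where as many or more reads ended was thus not seen. With each start position counted once, the ratio of the sides was 1.30 with DCL4-8:FHA and 0.959 with DCL4-6:FHA in flowers. In seedlings it was 0.750 with DCL4-8:FHA and 0.990 with DCL4-6:FHA. This count saturates, with 17 to 46 start positions a side for far more varied read numbers. Copies of a molecule are also counted once by it. How far either moved the ratios was not tested. Counting starts once took the ratio below 1 with DCL4-6:FHA in flowers and in both seedling libraries. The furthest was DCL4-8:FHA in seedlings, from 1.17 to 0.750, and the cause of this change of direction was not tested. The median depth was lower on the 3p side than on the 5p side in each tagged library.

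The tip of the hairpin was almost empty. The number of reads over the terminal loop in flowers was 0 of 181 with DCL4-8:FHA and 0 of 534 with DCL4-6:FHA. The upper bounds of the exact binomial intervals of these shares were 2.02% and 0.688%. In seedlings the number was 2 of 933 with DCL4-8:FHA, or 0.214% (exact binomial interval 0.0260% to 0.772%). With DCL4-6:FHA in seedlings it was 0 of 549, with an upper bound of 0.670%. The arms beside it had a mean depth of 2.41 RPM with DCL4-8:FHA against 5.08 RPM with DCL4-6:FHA in flowers, and 6.44 RPM with DCL4-8:FHA against 4.64 RPM with DCL4-6:FHA in seedlings.

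The empty stretch was long on both sides of the loop. Not a single read was seen from 897105 to 897220 with DCL4-8:FHA (116 nt) and from 897108 to 897214 with DCL4-6:FHA (107 nt) in flowers. In seedlings it was 65 nt with DCL4-6:FHA, from 897151 to 897215. With DCL4-8:FHA in seedlings the only empty stretch between the blocks was 25 nt, from 897150 to 897174, and did not hold the tip. Depth below 10 reads extended over 129 nt with DCL4-8:FHA and 126 nt with DCL4-6:FHA in flowers, and over 105 nt with DCL4-8:FHA and 116 nt with DCL4-6:FHA in seedlings. The more reads a library held, the shorter its empty stretch was, so a difference in its length between libraries of unequal depth is not shown.

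**Figure D2:**
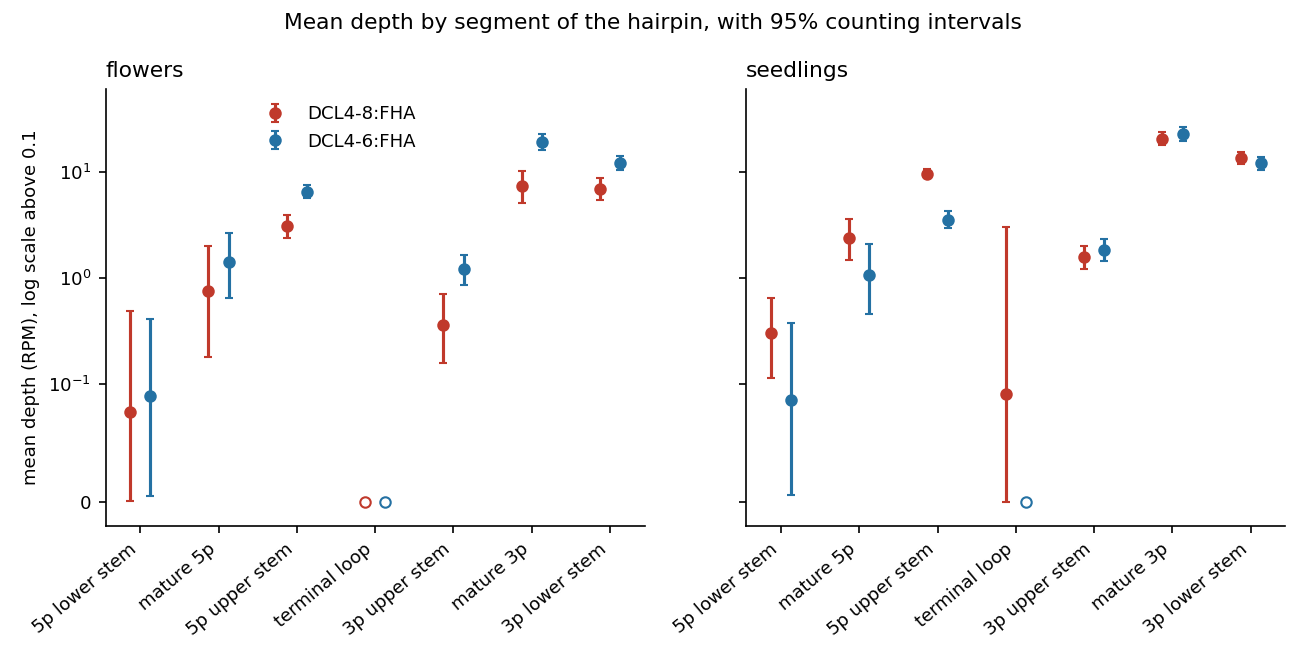
Mean depth in RPM in 7 segments of the hairpin in their order along the transcript, in flowers (left) and seedlings (right), with 95% counting intervals; open circles mark a depth of 0. In each of the 4 tagged libraries, which are the ones drawn, mature 3p and the 3p lower stem stood highest and the 5p upper stem came next. The 3p upper stem, mature 5p, the 5p lower stem and the terminal loop were low.

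The mature arms were unlike each other. The window of miR822-3p, the strand opposite miR822-5p in the duplex, had a mean depth of 7.35 RPM with DCL4-8:FHA against 19.0 RPM with DCL4-6:FHA in flowers, and 20.6 RPM with DCL4-8:FHA against 22.9 RPM with DCL4-6:FHA in seedlings. The window of miR822-5p had 0.745 RPM with DCL4-8:FHA against 1.40 RPM with DCL4-6:FHA in flowers, and 2.37 RPM with DCL4-8:FHA against 1.07 RPM with DCL4-6:FHA in seedlings. Each 3p window thus stood above each 5p window. The ratio of 3p to 5p window was 9.88 with DCL4-8:FHA and 13.6 with DCL4-6:FHA in flowers, and 8.68 with DCL4-8:FHA and 21.5 with DCL4-6:FHA in seedlings. The lower bounds of these ratios ran from 3.34, with DCL4-8:FHA in flowers, to 10.6, with DCL4-6:FHA in seedlings. These reads were 50 nt long, so a read over a window is a longer RNA and not the mature microRNA of 21 nt.

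Around miR822-5p the depth climbed towards the tip. With DCL4-8:FHA in flowers it was 2 reads at the first base of the microRNA, 17 reads at its last base and 65 reads another 10 nt towards the tip. With DCL4-6:FHA in flowers the same places had 9, 41 and 195 reads. With DCL4-8:FHA in seedlings they had 28, 86 and 350 reads, and with DCL4-6:FHA in seedlings 9, 30 and 110 reads. In all 4 libraries the depth thus rose more over the 10 nt past the edge than over the 21 nt of the microRNA. On the 5p side the stem above the mature window had a mean depth of 3.10 RPM with DCL4-8:FHA against 6.51 RPM with DCL4-6:FHA in flowers, and 9.60 RPM with DCL4-8:FHA against 3.54 RPM with DCL4-6:FHA in seedlings. The stem below the window, towards the base of the hairpin, had at most 0.301 RPM, in DCL4-8:FHA seedlings.

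Around miR822-3p the order was the opposite. The stem below the window had a mean depth of 6.94 RPM with DCL4-8:FHA against 12.1 RPM with DCL4-6:FHA in flowers, and 13.6 RPM with DCL4-8:FHA against 12.0 RPM with DCL4-6:FHA in seedlings. The stem above it had 0.360 RPM with DCL4-8:FHA against 1.21 RPM with DCL4-6:FHA in flowers, and 1.56 RPM with DCL4-8:FHA against 1.84 RPM with DCL4-6:FHA in seedlings. The upper stem of the 3p side thus held 0.0518 to 0.153 times the depth of its lower stem. On the 5p side the lower stem held 6.30 reads with DCL4-8:FHA in seedlings, as summed depth divided by the read length. In the other tagged libraries it held at most 1.48 reads on that count, under the floor of 3 reads. Its highest depth was 9 reads with DCL4-6:FHA in both tissues and 2 reads with DCL4-8:FHA in flowers. With DCL4-8:FHA in seedlings the upper stem held 31.9 times the depth of the lower stem, with a lower bound of 14.8.

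**Figure D3:**
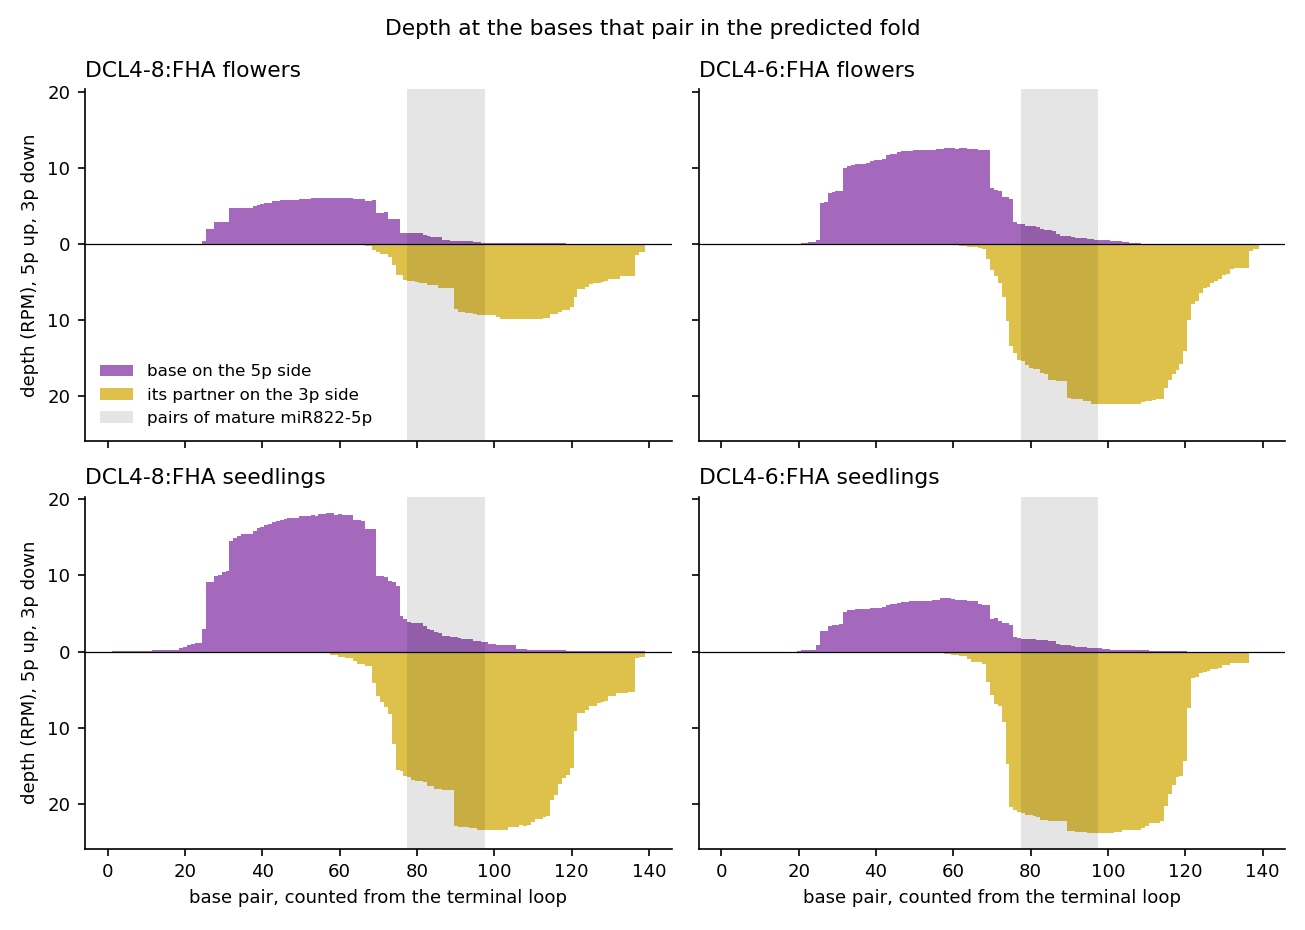
Depth in RPM at the 139 base pairs with a value on both sides, counted from the terminal loop, with the 5p base drawn upward, its partner on the 3p side downward and the pairs of mature miR822-5p in grey. The 5p block lies nearer the terminal loop than the 3p block in each of the 4 tagged libraries, and they meet at the edge of the mature duplex.

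Laid on the fold, the blocks of the sides hardly faced each other. Of the 139 base pairs, both bases had at least 10 reads at 17 pairs with DCL4-8:FHA and 29 pairs with DCL4-6:FHA in flowers, and at 46 pairs with DCL4-8:FHA and 33 pairs with DCL4-6:FHA in seedlings. Summed over the pairs, the lower of the 2 depths was 0.0497 times the higher with DCL4-8:FHA and 0.0503 times with DCL4-6:FHA in flowers, and 0.0748 times with DCL4-8:FHA and 0.0505 times with DCL4-6:FHA in seedlings. Equal depth at both bases of every pair would give 1. Linear and rank correlation between the depths of paired bases differed. Pearson's r was -0.56 with DCL4-8:FHA and -0.49 with DCL4-6:FHA in flowers, and -0.49 with DCL4-8:FHA and -0.40 with DCL4-6:FHA in seedlings, as a description across positions that share reads. Spearman's rho was -0.28 with DCL4-8:FHA and -0.24 with DCL4-6:FHA in flowers, and -0.23 with DCL4-8:FHA and 0.03 with DCL4-6:FHA in seedlings, so by rank the relation was weaker and had no negative sign in DCL4-6:FHA seedlings.

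Over 50% of the reads of each tagged library were stacked on 7 pairs of ends. A rise of depth at one position was matched by a fall exactly 50 nt later for 91.2% of the reads with DCL4-8:FHA and 90.3% with DCL4-6:FHA in flowers, and for 91.8% with DCL4-8:FHA and 90.0% with DCL4-6:FHA in seedlings. Reads of equal length give such matches wherever they start, so the match only shows where ends lie. There were 7 blocks that held on average at least 3% of the reads of the tagged libraries, a limit set after the values were seen. They lay at 897228 to 897277 and 897235 to 897284 on the 5p side, and at 897028 to 897077, 897044 to 897093, 897045 to 897094, 897046 to 897095 and 897051 to 897100 on the 3p side. Together they held 57.0% of the reads with DCL4-8:FHA and 54.3% with DCL4-6:FHA in flowers, and 55.3% with DCL4-8:FHA and 57.4% with DCL4-6:FHA in seedlings.

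Some of the read ends recurred between libraries. Depth rose at 98 positions in at least 1 tagged library and at 29 positions in all 4. Those 29 positions held 91.7% of the reads with DCL4-8:FHA and 81.1% with DCL4-6:FHA in flowers, and 80.9% with DCL4-8:FHA and 80.0% with DCL4-6:FHA in seedlings. Those positions were picked for a rise in all 4 of these same libraries, which places with many reads pass more readily. Their high shares thus follow in part from the choice. Reads with the same ends within a library cannot be told from copies of one molecule.

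**Figure D4:**
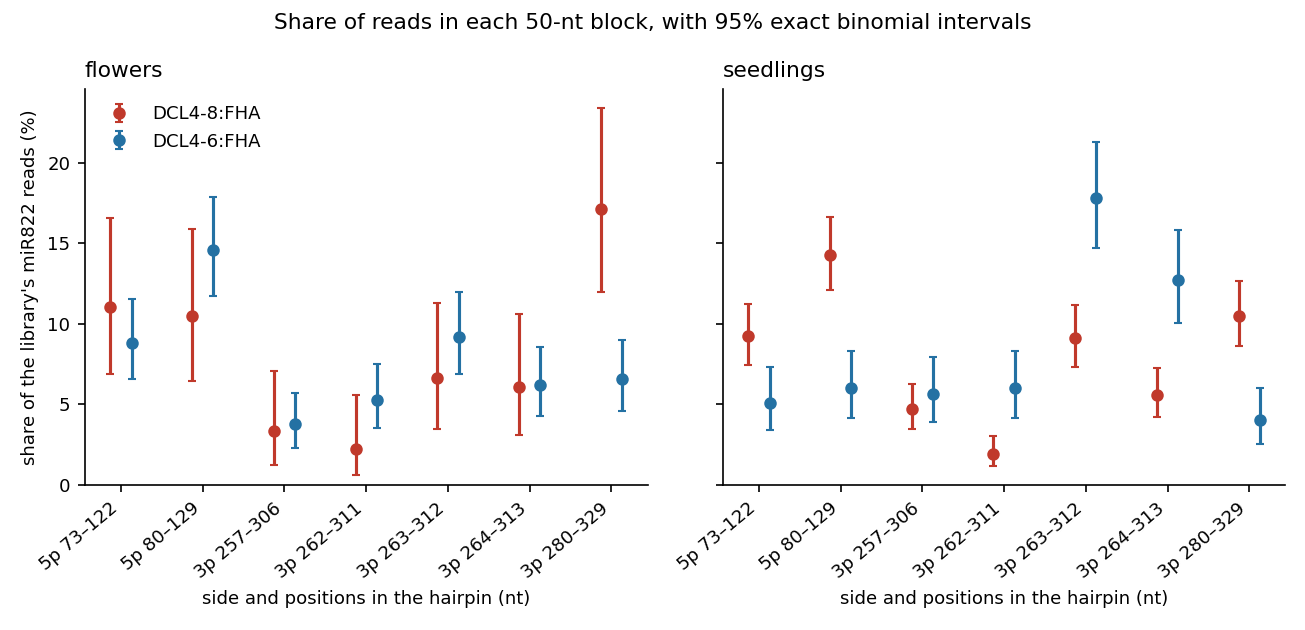
Share of each library's miR822 reads in the 7 blocks of 50 nt, named by side and by position in the hairpin from its 5′ end, with exact binomial 95% intervals, in flowers (left) and seedlings (right). The block at 280 to 329, nearest the 3′ end of the hairpin, has a larger share with DCL4-8:FHA than with DCL4-6:FHA in both tissues.

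The 5p blocks lay just past mature miR822-5p. The block at 897235 to 897284 ends 3 nt from the nearest base of the mature window, and that at 897228 to 897277 ends 10 nt from it. The first had 20 reads with DCL4-8:FHA and 47 reads with DCL4-6:FHA in flowers, and 86 reads with DCL4-8:FHA and 28 reads with DCL4-6:FHA in seedlings. The other had 19 reads with DCL4-8:FHA and 78 reads with DCL4-6:FHA in flowers, and 133 reads with DCL4-8:FHA and 33 reads with DCL4-6:FHA in seedlings. In seedlings both stood higher with DCL4-8:FHA, 2.51-fold (1.62 to 3.99) and 3.29-fold (2.23 to 4.98) relative to the library totals. The block at 897235 is also where the 3 reads of WT seedlings lay, at 1.53 RPM. With DCL4-6:FHA in seedlings its 28 reads came to 1.57 RPM (1.05 to 2.28). The WT value is 3 reads in the shallowest library, at the floor, so whether the block stood above WT there is not shown. In flowers the block at 897228 was 2.93-fold lower with DCL4-8:FHA, a ratio of 0.342 (0.195 to 0.570), and the block at 897235 had a ratio of 0.597 (0.335 to 1.03).

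The 3 blocks that start at 897044, 897045 and 897046 span mature miR822-3p whole and reach 6, 7 and 8 nt beyond it towards the tip. The deepest of them, at 897045, had 12 reads with DCL4-8:FHA and 49 reads with DCL4-6:FHA in flowers, and 85 reads with DCL4-8:FHA and 98 reads with DCL4-6:FHA in seedlings. These 3 were lower with DCL4-8:FHA in seedlings, at ratios of 0.607, 0.708 and 0.446, and in flowers, at ratios of 0.468, 0.343 and 0.200, in order of their start. The block at 897051 also spans mature miR822-3p whole and reaches 13 nt beyond it. Its ratio was 0.421 in flowers, with an interval of 0.138 to 1.09, and 1.16 in seedlings, with an interval of 0.716 to 1.90, so neither was called. In seedlings the 5p blocks and the 3 blocks that start at 897044, 897045 and 897046 thus differed between the lines in opposite directions within the same libraries. The 3p block at 897028 went the way of the 5p blocks there, with a ratio of 3.64 (2.27 to 6.07).

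The block nearest the base of the hairpin on the 3p side, 897028 to 897077, shares only 11 bases with mature miR822-3p. It had 31 reads with DCL4-8:FHA and 35 reads with DCL4-6:FHA in flowers, and 98 reads with DCL4-8:FHA and 22 reads with DCL4-6:FHA in seedlings. These are 17.1% (12.0% to 23.4%) of the reads with DCL4-8:FHA and 6.56% (4.61% to 9.00%) with DCL4-6:FHA in flowers. In seedlings they are 10.5% (8.61% to 12.7%) with DCL4-8:FHA and 4.01% (2.53% to 6.01%) with DCL4-6:FHA. The odds that a read of the hairpin lay in this block were 2.94 times as high with DCL4-8:FHA as with DCL4-6:FHA in flowers (1.69 to 5.10) and 2.81 times in seedlings (1.73 to 4.75). Among the 7 blocks it was the only one whose odds differed between the lines in both tissues with intervals that leave out 1. The block was singled out after its values were seen. Its level with DCL4-8:FHA over DCL4-6:FHA was 1.24 in flowers, with an interval of 0.741 to 2.07, and 3.64 in seedlings, with an interval of 2.27 to 6.07. Leaving out its reads can only lower the 3p side. The ratio of 3p to 5p side was then 1.09 with DCL4-8:FHA and 1.39 with DCL4-6:FHA in flowers, and 0.943 with DCL4-8:FHA and 2.996 with DCL4-6:FHA in seedlings.

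Between the lines, the hairpin as a whole was lower with DCL4-8:FHA in flowers and higher in seedlings, where the 5p side was higher and the blocks of the 3p side differed in both directions. In flowers the level with DCL4-8:FHA was 2.10-fold lower than with DCL4-6:FHA, a ratio of 0.475 (0.399 to 0.563). The loci whose ratio lay below 1 with its interval were 11.1% of the 9 loci with reads in both libraries, miR822 itself. In seedlings the ratio was 1.39 (1.25 to 1.55), and 77.8% of the 9 loci were higher with DCL4-8:FHA there. The ratio in flowers was 0.343 times that in seedlings (0.279 to 0.420), with 1 library in each place.

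**Figure D5:**
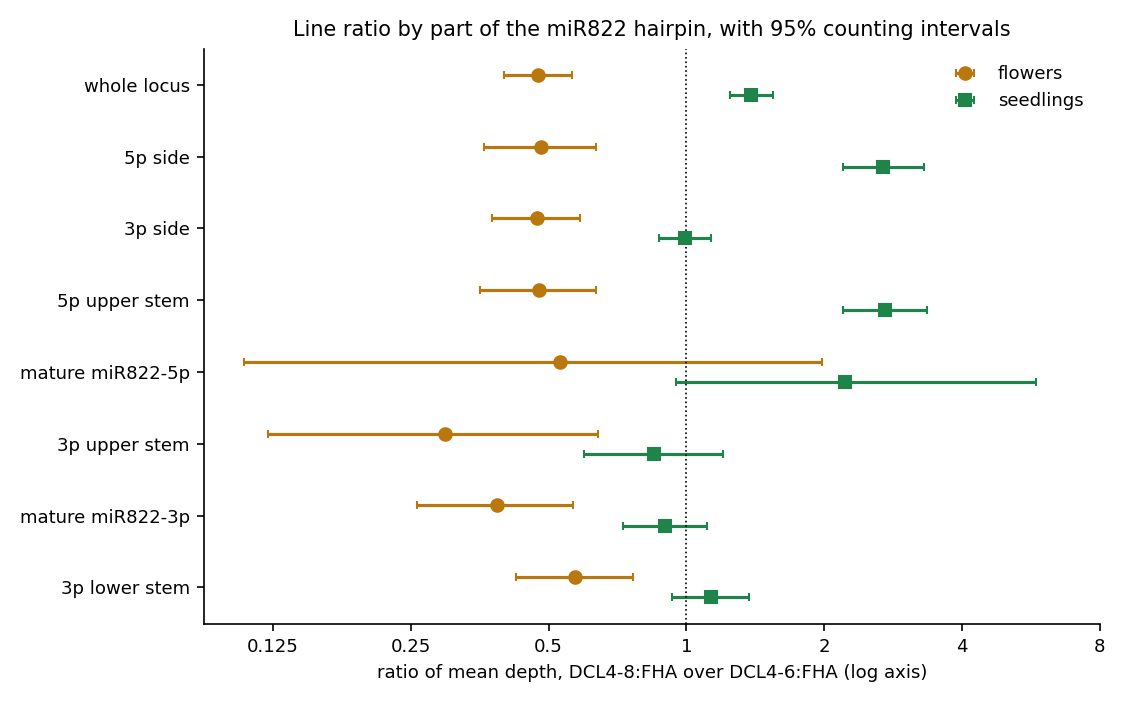
Ratio of mean depth, DCL4-8:FHA over DCL4-6:FHA, for the whole hairpin and 7 parts of it, on a log axis, with 95% counting intervals, in flowers (circles) and seedlings (squares); the dotted line marks 1. In flowers the whole and both sides lie near 0.5; in seedlings the 5p side lies at 2.69 and the 3p side at 0.993.

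By side, the ratio of DCL4-8:FHA over DCL4-6:FHA in flowers was 0.471 on the 3p side (0.376 to 0.586) and 0.482 on the 5p side (0.362 to 0.635). In seedlings it was 0.993 on the 3p side (0.871 to 1.13) and 2.69 on the 5p side (2.20 to 3.31). The 3p ratio in seedlings is a mean over blocks that went both ways, from 0.446 to 3.64. The 5p ratio in flowers was 0.180 times that in seedlings (0.126 to 0.254). On the 3p side that value was 0.475 (0.366 to 0.614). Within the sides, the 5p upper stem had a ratio of 0.477 in flowers (0.355 to 0.634), and in seedlings the ratio was 2.71 (2.20 to 3.36). The window of miR822-3p had 0.386 in flowers (0.257 to 0.566), and in seedlings the ratio was 0.898 (0.726 to 1.11). The window of miR822-5p had a ratio of 0.531 in flowers, with an interval of 0.108 to 1.97. In seedlings the ratio was 2.22, with an interval of 0.949 to 5.80. These intervals count summed depth divided by the read length, which is longer than the window. The highest depth there was 17 reads with DCL4-8:FHA and 41 reads with DCL4-6:FHA in flowers. In seedlings it was 86 reads with DCL4-8:FHA and 30 reads with DCL4-6:FHA. The intervals thus do not measure the counting error of the reads that crossed the window. Whether the lines differed there was not tested on those reads.

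The line ratios lay nearer 1 when each position where depth rose was counted once as a start. That count misses starts hidden by read ends, saturates as reads increase and merges copies of a molecule. How far each of these moved the ratios was not tested. With each start position counted once, DCL4-8:FHA had 40 start positions and DCL4-6:FHA had 66 in flowers, a ratio of 0.850 relative to the library totals. In seedlings DCL4-8:FHA had 82 and DCL4-6:FHA had 63, a ratio of 1.06. With the highest depth in place of the mean, the ratio in seedlings was 0.987.

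Between tissues, the level with DCL4-8:FHA was 2.67-fold lower in flowers than in seedlings, a ratio of 0.375 (0.318 to 0.440), and 33.3% of the 9 loci were lower in flowers in that line. It was lower on both sides, with ratios of 0.419 on the 3p side (0.338 to 0.515) and 0.321 on the 5p side (0.246 to 0.415). With each start position counted once the ratio was 0.944. With DCL4-6:FHA the level in flowers over seedlings was 1.10 (0.970 to 1.24), an interval that holds 1. There the sides differed: the 5p side was 1.80-fold higher in flowers (1.43 to 2.26), while the ratio on the 3p side was 0.883 (0.762 to 1.02).

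Set beside the other loci whose transcripts fold back on themselves, miR822 had a line ratio that differed from theirs in both tissues. IR2039, an inverted repeat, stood 3.38-fold higher with DCL4-8:FHA in flowers and 2.84-fold higher in seedlings. The ratio of miR822 was 0.141 times that of IR2039 in flowers (0.116 to 0.171), and in seedlings it was 0.488 times that of IR2039 (0.413 to 0.576). IR71, a longer inverted repeat whose reads can match several places, had 6.60 in flowers and 0.460 in seedlings. The ratio of miR822 was 0.0721 times that of IR71 in flowers (0.0599 to 0.0863), and in seedlings it was 3.02 times that of IR71 (2.67 to 3.42). The TAS loci, whose transcripts are made double-stranded by an RNA-dependent RNA polymerase, had ratios from 32.2 to 147 in flowers. In seedlings the ratios ran from 4.08 to 88.5. The lowest, 4.08 (0.870 to 38.3), was that of TAS3b and was not called. It rests on 10 reads with DCL4-8:FHA and 2 reads with DCL4-6:FHA, the latter under the floor of 3 reads. The next lowest in seedlings was TAS2, at 25.5. TAS4 had 0 reads in each library. In flowers miR822 was thus the locus that was lower with DCL4-8:FHA, and in seedlings IR71 was.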

How the data were processed

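The authors deposited read coverage per position, a signal scaled to library size (RPM). Reads were single-end and 50 nt long, per the labels' protocols. TAIR10, HISAT2 2.0.5 and bedtools 2.25.0 are named, with no role, per the submitters' processing notes. Strand settings and the rule for reads with several places were not given in the sources used here. The values have no strand. The file labels of the seedling libraries say seeds.

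Each library's values were whole multiples of the value of 1 read, which gave library totals and depth in whole reads. No count model was used. Levels have exact Poisson intervals, ratios exact conditional intervals and shares exact binomial (Clopper-Pearson) intervals, all at 95%. For the sides, stems and mature windows the count was summed depth divided by the read length. More reads can cross a part shorter than a read than are counted there, so its intervals do not measure their counting error. A ratio was called when its interval left out 1. The floor was 3 reads. Intervals of whole-locus ratios were tried on read numbers simulated independently. These held no copied reads and no segments, so they cannot show how the intervals do with either.

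Sequence and annotation came from RefSeq TAIR10.1. RNAfold 2.7.2 gave the fold and blastn 2.17.0 aligned the arms of IR71. There, depth at 1159 matched bases differed by 1.24% to 3.16% in the 4 tagged libraries with positions counted from 1, and by 3.50% to 5.89% counted from 0. Summed rises and falls of depth gave read ends. Starts could not be solved exactly without negative values. Python 3.11.15 and scipy 1.17.1 were used. miR822 is named in every library, other loci only beside it. The member and segments were chosen with earlier results of these data known. Where replicates are absent, intervals measure counting error only.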

Additional observations from a re-analysis of the deposited data

Results flagged for a closer look

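The line ratio of miR822 had opposite directions in the tissues. Over the whole hairpin DCL4-8:FHA over DCL4-6:FHA was 0.475 in flowers and 1.39 in seedlings, and on the 5p side it was 0.482 in flowers and 2.69 in seedlings. With 1 library per line and tissue the difference was not tested over samples. Leaving out a library leaves no ratio, so no value without a library can be given.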

How the results depend on the processing

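Values here are log2 ratios. With each start position counted once, chosen after the data were seen, DCL4-8:FHA over DCL4-6:FHA was -0.23 in flowers and 0.0883 in seedlings, against -1.07 and 0.47. DCL4-8:FHA in flowers over seedlings was -0.0839, against -1.42, and DCL4-8:FHA over WT in seedlings was 2.89, against 4.81. The ratio of 3p to 5p side was then -0.0607 with DCL4-6:FHA in flowers, -0.41 with DCL4-8:FHA in seedlings and -0.0149 with DCL4-6:FHA in seedlings, against 0.64, 0.22 and 1.66. With the median over positions the lines in seedlings gave 1.42, and flowers over seedlings gave -2.57 with DCL4-8:FHA and -0.0507 with DCL4-6:FHA. The median ratio of 3p to 5p side was -2.58 with DCL4-8:FHA and -1.58 with DCL4-6:FHA in flowers, and -1.26 with DCL4-8:FHA and -0.85 with DCL4-6:FHA in seedlings. With the maximum, the lines in seedlings gave -0.0188 and DCL4-6:FHA in flowers over seedlings gave -0.17, against 0.13. After a shift that sets the median over loci to 1, which moves each value by that median, the lines gave -6.75 in flowers and -4.20 in seedlings, and flowers over seedlings gave -3.03 with DCL4-8:FHA and -0.15 with DCL4-6:FHA. Without the reads of the outermost 3p block, chosen after the data were seen, the ratio of 3p to 5p side with DCL4-8:FHA was 0.13 in flowers and -0.0848 in seedlings. Leaving out 3p reads lowers the 3p side by construction. Counting starts once saturates and also merges copies of a molecule. The cause of the other changes was not tested, nor was that of any change with starts counted once. Of 98 recomputed values, 66 stayed within the main interval, 22 moved out of it in the same direction or from an uncalled value, and 10 called values changed sign. Some of these outcomes were fixed in advance, so the counts do not measure how firm the results are. The 4 read numbers had to rise when summed depth was divided by 40 nt. The 12 values of the tip over the sides all stayed, mainly with 0 reads over the tip.

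No paired analysis was possible because each group has 1 library. The 5p lower stem, the unpaired 3p end, the 3p upper stem, the mature 5p window and the tip have low mean depth.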
